A study of Homo sapiens with 2 samples.

Results

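The human reference genome holds, beside its assembled chromosomes, many shorter sequences called contigs. The regions described here are all peaks of open chromatin that lie on such contigs, chosen by the sequence name alone: every peak not on chromosomes 1 to 22, X or Y. They were 627 of the 36142 peaks of the control list (1.73%, 95% Wilson interval 1.61 to 1.87) and 505 of the 22884 peaks of the methylglyoxal (MGO) list (2.21%, 2.02 to 2.41), or 1132 of 59026 peaks in all. Contigs fell into 3 classes. Unlocalized contigs belong to a known chromosome at an unknown place. Unplaced contigs belong to no known chromosome. Alternate contigs are second versions of regions that the chromosomes already hold. No peak lay on a contig of any other kind.

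The peaks came from ATAC-seq, in which the transposase Tn5 cuts accessible DNA and leaves sequencing adapters there. Cells of the 293T line, a transformed human embryonic kidney line, were used in both groups. MGO-treated cells received fresh medium with 0.5 mM MGO, a reactive by-product of glycolysis that modifies histones and DNA, for 12 h. Control cells received fresh medium without it (their sample is labelled PBS). One library of 50000 cells was available per group, so no test between the groups could be made, and a difference between treatments cannot be told apart from a difference between the 2 libraries. The intervals given here are 95% intervals for counting error only. They treat peaks as independent, although peaks on 1 contig share their source. The deposited lists hold peaks and not reads. The methods give an approximate number of sequenced reads per sample and state that depths were then made equal, but not how many reads were left in each library.

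Much of the unlocalized and unplaced sequence is satellite DNA, in which a short unit is repeated head to tail over long stretches, mostly near centromeres and on the short arms of the acrocentric chromosomes. Satellites II and III are built from variants of the word CATTC, satellite I from an AT-rich unit of 42 bases, beta satellite from a unit of 68 bases and alpha satellite from a longer unit. Such DNA is usually packed in constitutive heterochromatin. The short arms also carry the ribosomal DNA, the tandem genes from which the large ribosomal RNAs are transcribed in the nucleolus. Alternate contigs, in contrast, mostly hold ordinary genes of variable regions such as the major histocompatibility complex (MHC).

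The kinds of DNA under these peaks are shown by 5 stretches of the reference (GRCh38/hg38, plus strand), each the centre of a control peak that overlapped an MGO peak. The first, from an unplaced contig, has each CATTC in capitals. In the second, from an unplaced contig, a capital marks a base equal to the one 42 positions before or after it within the stretch. In the third, from an unlocalized contig, capitals mark words of 8 bases that occur more than once in the stretch. In the fourth, from the ribosomal DNA, and the fifth, from an alternate contig at a gene start, capitals mark the dinucleotide CG.
CATTC repeat, chrUn_GL000216v2:5857-6006: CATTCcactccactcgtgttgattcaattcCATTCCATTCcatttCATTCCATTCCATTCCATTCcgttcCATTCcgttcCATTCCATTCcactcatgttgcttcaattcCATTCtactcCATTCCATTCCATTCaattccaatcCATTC
42-base repeat, chrUn_KI270466v1:553-678: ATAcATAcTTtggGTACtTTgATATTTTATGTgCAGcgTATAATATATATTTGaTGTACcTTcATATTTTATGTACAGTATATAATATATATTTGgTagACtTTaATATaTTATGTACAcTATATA
68-base repeat, chr14_GL000225v1_random:21688-21837: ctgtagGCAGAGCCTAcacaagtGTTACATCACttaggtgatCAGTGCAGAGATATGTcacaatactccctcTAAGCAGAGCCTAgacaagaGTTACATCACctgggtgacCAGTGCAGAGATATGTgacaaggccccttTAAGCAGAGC
Ribosomal DNA, chrUn_GL000220v1:105893-106042: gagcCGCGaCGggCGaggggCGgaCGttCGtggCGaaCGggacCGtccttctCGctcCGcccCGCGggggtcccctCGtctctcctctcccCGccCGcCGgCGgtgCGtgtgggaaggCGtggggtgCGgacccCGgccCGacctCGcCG
Gene start, chr1_KI270763v1_alt:267450-267599: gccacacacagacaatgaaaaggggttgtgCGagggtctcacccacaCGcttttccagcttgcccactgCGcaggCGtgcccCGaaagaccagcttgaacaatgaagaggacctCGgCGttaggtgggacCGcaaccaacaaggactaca

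The number of peaks after MGO differed by contig class. Unlocalized contigs held 108 peaks in the control list and 108 in the MGO list. Unplaced contigs held 105 and 110. Numbers in both classes were thus level in the lists as deposited, with 213 control and 218 MGO peaks together. Their ratio, MGO over control, was 1.02 (interval 0.843 to 1.24, exact binomial). It became 1.28 (170 and 218 peaks) when the 2 whole lists were limited to equal numbers of peaks. At a fold enrichment of 4 or more it was 0.742 (31 and 23 peaks). Among peaks with a fold enrichment of 4 or more, unlocalized contigs held 15 control and 8 MGO peaks (ratio 0.533, 0.196 to 1.34, an interval that includes equal numbers) and unplaced contigs 16 and 15, while the ratio of the chromosomes at this limit was 0.477. Alternate contigs held 414 control and 287 MGO peaks (ratio 0.693, 0.594 to 0.808). The chromosomes held 35515 and 22379 (ratio 0.630, 0.620 to 0.641). Relative to the chromosomes, the ratio of unlocalized and unplaced contigs was 1.62 times as high (1.34 to 1.97), while that of alternate contigs was 1.10 times as high (0.942 to 1.28), an interval that includes no difference. The ratio of unlocalized and unplaced contigs was also 1.48 times that of alternate contigs (1.15 to 1.89). With equal numbers of peaks in the 2 lists these ratios lay closer together. They were 1.28 on unlocalized and unplaced contigs, 1.10 on alternate contigs (0.927 to 1.31) and 0.997 on the chromosomes. Intervals for the comparisons between classes were not computed at that setting. The plot of peak numbers by class shows these values together with the peaks found in both lists.

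**Figure D1:**
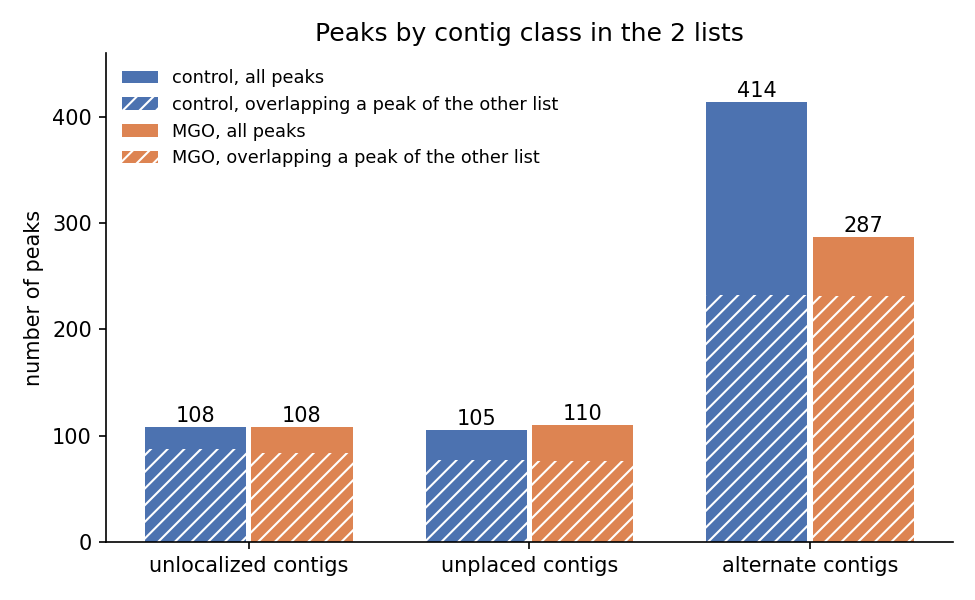
Number of peaks (vertical axis) on unlocalized, unplaced and alternate contigs in the control list (blue) and the MGO list (orange), 1 library each; hatched parts are peaks that overlap a peak of the other list by 1 bp or more. The bars of the first 2 classes are level (108 and 108, 105 and 110), and alternate contigs have 414 control and 287 MGO peaks.

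The length covered by peaks followed the numbers only in part. On unlocalized and unplaced contigs peaks covered 232.9 kb in the control and 273.6 kb after MGO, a ratio of 1.17 at nearly equal peak numbers, because the mean peak was 1093 bp wide in the control and 1255 bp after MGO. On alternate contigs the covered length was 315.3 kb and 206.1 kb (ratio 0.653), with mean widths of 762 bp and 718 bp. The ratio on the chromosomes was 0.641.

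Many contigs carried no peak. Of 42 unlocalized contigs in the reference 29 carried a peak in at least 1 list, of 127 unplaced contigs 36, and of 261 alternate contigs 127. Per Mb of known sequence, unlocalized contigs held 16.3 control peaks and 16.3 MGO peaks, unplaced contigs 24.3 and 25.4, and alternate contigs 4.11 and 2.85, beside 12.1 and 7.62 on the chromosomes. Of the 127 alternate contigs with a peak, 78 had fewer peaks after MGO and 14 had more. Of the 29 unlocalized contigs 7 had fewer and 12 had more, and of the 36 unplaced contigs 8 had fewer and 15 had more. The level numbers of these 2 classes were thus not those of a single contig. Without the contig with the most peaks, chr14_GL000225v1_random, the unlocalized ratio was 1.06 in place of 1.00, and without chrUn_GL000216v2 the unplaced ratio was 1.07 in place of 1.05.

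The next comparison asked which control peaks were still called after MGO. Across the whole control list 49.9% of peaks overlapped an MGO peak by 1 bp or more. On contigs 396 of 627 control peaks did so (63.2%, 59.3 to 66.8, Wilson). The share was 80.6% on unlocalized contigs (87 of 108, 72.1 to 86.9), 73.3% on unplaced contigs (77 of 105, 64.2 to 80.9) and 56.0% on alternate contigs (232 of 414, 51.2 to 60.7), against 49.7% on the chromosomes. The difference to the chromosomes was 27.3 percentage points for unlocalized and unplaced contigs together (21.2 to 32.5, Newcombe) and 6.38 points for alternate contigs (1.54 to 11.1). Unlocalized and unplaced contigs exceeded alternate contigs by 21.0 points (13.3 to 28.0). The excess of alternate contigs turned into a deficit when both lists were limited to a −log10 q of 2 or more, the limit that the study used downstream: 146 of 276 alternate peaks (52.9%) overlapped an MGO peak, against 59.0% on the chromosomes (difference −6.07 points, −12.0 to −0.232). The excess of unlocalized and unplaced contigs was 23.7 points there (17.3 to 28.6), but 15.01 points with an interval that included no difference (−1.82 to 31.5) at a fold of 4 or more, where the unlocalized share was 40.0% (6 of 15) beside 36.6% on the chromosomes.

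In the opposite direction, 78.9% of all MGO peaks overlapped a control peak. The share was 77.4% on contigs (391 of 505, 73.6 to 80.9), with 80.5% on alternate contigs (231 of 287), 77.8% on unlocalized contigs (84 of 108) and 69.1% on unplaced contigs (76 of 110). The difference between unplaced contigs and the chromosomes was −9.81 points (−19.0 to −1.92), and 34 of 110 MGO peaks on unplaced contigs had no control counterpart. Accordingly, level numbers on these contigs did not mean that every peak was common to both lists: 49 of 213 control peaks on unlocalized and unplaced contigs were absent from the MGO list and 58 of 218 MGO peaks were absent from the control list.

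**Figure D2:**
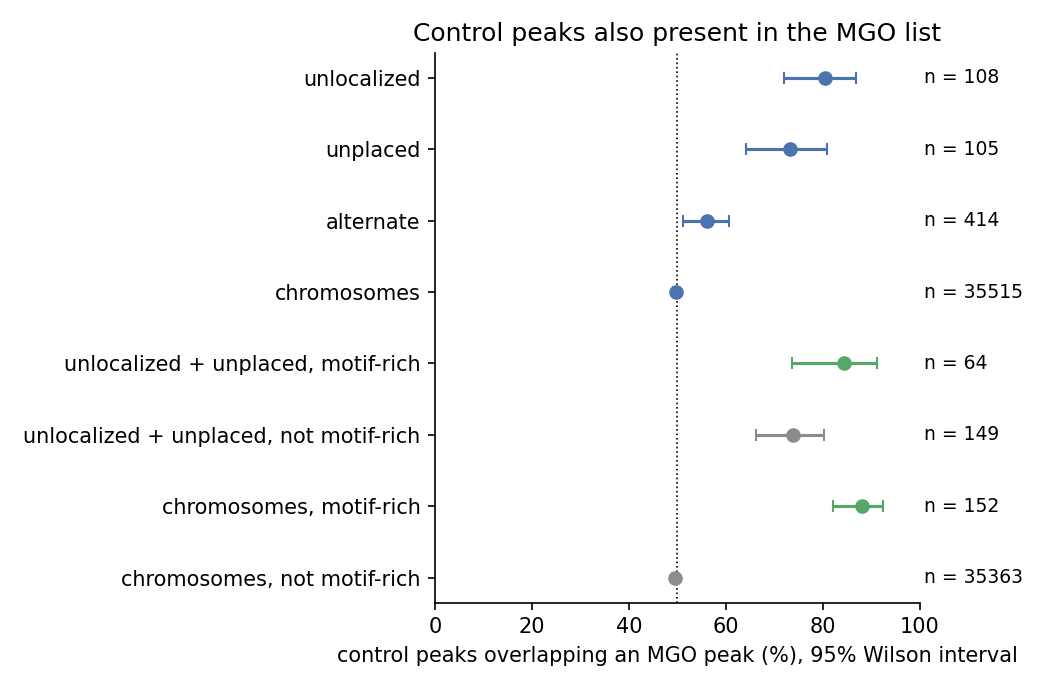
Percentage of control peaks that overlap an MGO peak by 1 bp or more (horizontal axis) with 95% Wilson intervals, by contig class (blue) and split into peaks with 30 or more CATTC words per kb (green, motif-rich) and other peaks (grey); the dotted line is the 49.9% of the whole control list. Unlocalized and unplaced contigs lie to the right of the line, also where motif-rich peaks are left out, and motif-rich peaks of the chromosomes reach 88.2%.

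The strength of a peak is given by the −log10 of its p-value against the local background, so larger values mark stronger peaks. Control peaks on unlocalized and unplaced contigs had a median −log10 p of 6.38, above the 5.14 of the chromosomes, and alternate peaks 4.92. Strong peaks were found again in the MGO list in every class, and therefore the classes were also compared among peaks of like strength, by cutting the control list into 5 groups of equal size. In the weakest group 6 of 21 unlocalized and unplaced peaks (28.6%) overlapped an MGO peak, against 13.3% of alternate and 8.93% of chromosome peaks. In the middle group the shares were 80.0% (40 of 50), 59.7% and 43.1%. In the strongest group they were 100% (57 of 57), 95.3% and 98.0%, with no room for a difference. Weighted over the 5 groups, the excess of unlocalized and unplaced contigs over the chromosomes was 17.1 points, and 19.9 points over 5 groups of equal width. For alternate contigs it was 11.8 points at equal strength.

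Peaks without a partner in the other list were weaker and narrower. On unlocalized and unplaced contigs control peaks with a partner had a median −log10 p of 7.16 and a median width of 1047 bp, and those without one 4.22 and 500 bp. On alternate contigs the values were 5.67 and 824.5 bp against 4.13 and 544.5 bp. The GC content differed little between the 2 kinds on unlocalized and unplaced contigs (47.2% and 48.0%), but on alternate contigs it was 67.3% for control peaks with a partner and 60.5% for those without, and on the chromosomes 61.7% and 44.5%.

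Peak widths separated the classes as well. The median width was 881.5 bp in the control and 1005.5 bp after MGO on unlocalized contigs, 820 and 990.5 bp on unplaced contigs, and 685 and 654 bp on alternate contigs, beside 724 and 754 bp on the chromosomes. Peaks of 2 kb or more made up 11.7% of control peaks (25 of 213) and 19.3% of MGO peaks (42 of 218) on unlocalized and unplaced contigs. On the chromosomes they made up 2.67% and 2.69%, and on alternate contigs they numbered 7 and 2. The widest contig peak, 4996 bp, was an MGO peak on chr14_GL000225v1_random that lay across 2 control peaks.

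For peaks that formed a pair, in which each was the best overlap of the other, the 2 lists could be compared peak by peak. On unlocalized and unplaced contigs the MGO peak had the higher −log10 p in 109 of 159 pairs (68.6%, 61.0 to 75.3), with a median ratio of 1.14. On alternate contigs it was higher in 78 of 231 pairs (33.8%, 28.0 to 40.1, median ratio 0.890) and on the chromosomes in 25.5% of 17619 pairs (median ratio 0.819). The MGO peak was the wider one in 60.4% of unlocalized and unplaced pairs, 32.03% of alternate pairs and 31.1% of chromosome pairs. The fold enrichment over background did not follow: it was higher after MGO in 39.6% of unlocalized and unplaced pairs (63 of 159), 28.6% of alternate pairs and 27.7% of chromosome pairs, and its median ratio was 0.967, 0.929 and 0.925.

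**Figure D3:**
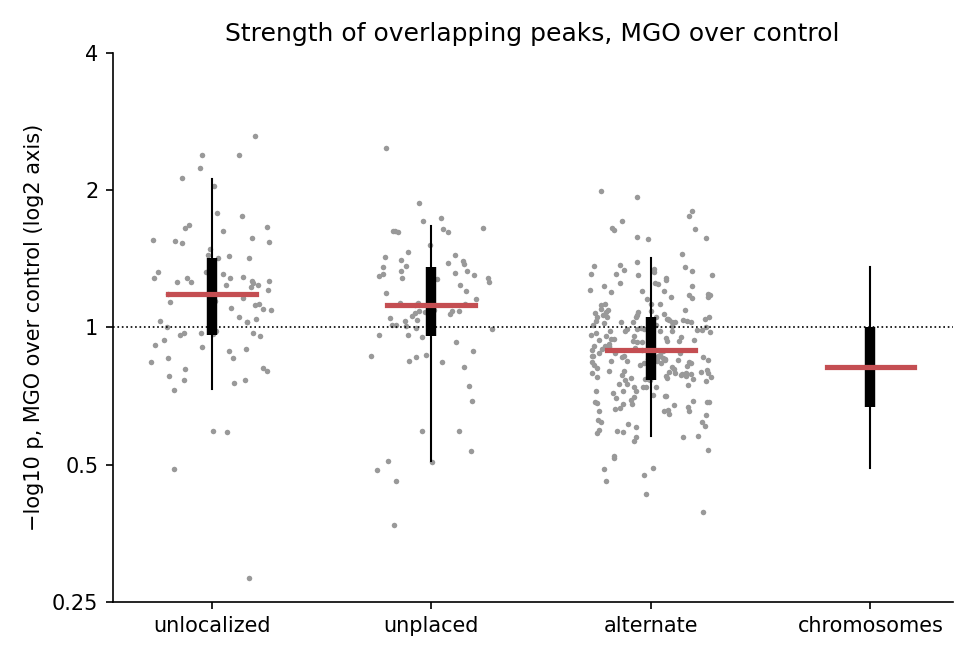
Ratio of −log10 p, MGO over control (vertical axis, log2 scale), for pairs of overlapping peaks by contig class; grey points are single pairs, red lines medians, thick bars the middle 50% and thin bars the middle 90% (for chromosomes no points are drawn). The medians of unlocalized (1.18) and unplaced contigs (1.12) lie above 1 and those of alternate contigs (0.890) and chromosomes (0.819) below it.

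Satellite II and III sequence under the peaks was measured by counting CATTC on both strands (CATTC or its complement GAATG). A peak was called CATTC-rich at 30 or more words per kb, a limit set after the values were seen; only 9 contig peaks of the 2 lists lay between 10 and 30 per kb. CATTC-rich peaks numbered 64 of 213 in the control and 66 of 218 after MGO on unlocalized and unplaced contigs, but 11 of 414 and 7 of 287 on alternate contigs, and 0.428% of control and 0.782% of MGO peaks on the chromosomes. On unlocalized and unplaced contigs 54 of the 64 CATTC-rich control peaks overlapped an MGO peak (84.4%, 73.6 to 91.3), and the MGO member was the stronger one in 40 of 52 pairs. The chromosomes showed values of the same size where they held such sequence: 152 control and 175 MGO peaks (ratio 1.15, 0.921 to 1.44), 88.2% of the control peaks overlapping (82.1 to 92.4), and 105 of 133 pairs stronger after MGO. The difference between contigs and chromosomes among CATTC-rich peaks was −3.78 points (−15.4 to 5.43), an interval that includes zero.

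The remaining peaks of unlocalized and unplaced contigs still differed from the chromosomes. They numbered 149 in the control and 152 after MGO (ratio 1.02, 0.808 to 1.29), and 110 of the 149 (73.8%, 66.2 to 80.2) were met by an MGO peak. The other chromosome peaks had a ratio of 0.628 and a share of 49.5%, so the difference was 24.3 points (16.7 to 30.8).

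Of the 5 overlapping pairs with the highest control −log10 p on contigs, 4 had the 42-base repeat. A peak was assigned to a repeat when at least 50% of its bases equalled the base 1 repeat length further on. By this measure 5 control and 5 MGO peaks on unplaced contigs had the 42-base repeat, 1 on each of chrUn_KI270333v1, chrUn_KI270336v1, chrUn_KI270337v1, chrUn_KI270466v1 and chrUn_KI270467v1, and each of the 5 pairs was stronger after MGO. Their GC content was 21.5% to 25.3% in the control list. The strongest pair, on chrUn_KI270466v1, had a −log10 p of 169.5 in the control and 225.5 after MGO, with fold enrichments of 7.48 and 7.84 and widths of 1130 and 1134 bp. On chrUn_KI270467v1 the −log10 p values were 141.0 and 197.6, on chrUn_KI270337v1 120.7 and 134.8, on chrUn_KI270336v1 67.0 and 72.6, and on chrUn_KI270333v1 55.4 and 59.7. Their fold enrichments in the control and after MGO, in the same order, were 3.27 and 3.52, 7.56 and 7.56, 7.97 and 7.76, and 3.72 and 3.72. Enrichment was thus not higher after MGO in every pair. The fourth strongest pair was CATTC-rich (74.1 words per kb), on chrUn_KI270438v1, and had 73.0 in the control and 127.1 after MGO, with widths of 3306 and 3384 bp. Peaks often lay close to where an unplaced contig ends. There 24 of 105 control peaks (22.9%) and 27 of 110 MGO peaks (24.5%) were within 1000 bp of an end. The numbers were 10 and 14 on unlocalized and 8 and 6 on alternate contigs. Unplaced contigs are also short: the median length in the reference was 2.65 kb, against 120 kb for unlocalized and 181 kb for alternate contigs. Of the 24 unplaced control peaks near an end 23 overlapped an MGO peak, beside 77 of 105 in the class. Whether a contig's end bears on the strength or width of a peak was not tested. Chromosomes held 55 control and 59 MGO peaks with a repeat of this length (ratio 1.07, 0.730 to 1.58), but with a median GC content of 53.6% in the control, against 24.0% on unplaced contigs, so the 2 sets differed in sequence. Of these control peaks 33 of 55 (60%) overlapped an MGO peak, and 26 of 32 pairs were stronger after MGO. One further pair, on the alternate contig chr15_KI270905v1_alt, also repeated at 42 bases but had a GC content of 65.1% and was weaker after MGO (17.8 and 16.1).

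A repeat at the unit length of alpha satellite was rare on contigs, with 3 control and 7 MGO peaks on unplaced contigs. On alternate contigs only 1 MGO peak reached the limit at this length. It was the GC-rich peak of chr15_KI270905v1_alt that also had the 42-base repeat. All 3 control peaks overlapped an MGO peak and were stronger there. Of the 7 MGO peaks on unplaced contigs only 3 overlapped a control peak. On the chromosomes a repeat of this length was under 210 control and 365 MGO peaks (ratio 1.74, 1.46 to 2.07). Of these control peaks 72.9% overlapped an MGO peak, and 124 of 153 pairs were stronger after MGO.

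The 68-base repeat reached the 50% limit in 14 control and 10 MGO peaks of unlocalized and unplaced contigs, and 13 of the 14 overlapped an MGO peak. On the chromosomes it did so in 40 control and 38 MGO peaks, with 57.5% of the former found again after MGO, and 19 of 22 pairs were stronger after MGO. Of the contig peaks, 11 and 8 lay on chr14_GL000225v1_random, an unlocalized contig of 211173 bp whose bases matched best at a distance of 68 (36.3% of bases, beside a median of 26.1% over distances from 2 to 400). This contig carried the most peaks of any, 28 in the control and 23 after MGO. All 23 MGO peaks and 25 of the 28 control peaks overlapped a peak of the other list, and 21 of 23 pairs were stronger after MGO. The median −log10 p was 8.35 in the control and 13.7 after MGO, and the covered length 35.1 kb and 40.2 kb. The strongest control peak of the contig had a −log10 p of 33.2 with a width of 1982 bp, and its MGO partner 41.7 with 2564 bp. The peak whose sequence is shown above had 17.0, and the MGO peak that overlapped it, which was 2361 bp wide and joined it to a neighbour, had 10.7. The median fold enrichment was 2.41 in the control and 2.32 after MGO, so that strength and width were higher on this contig while enrichment was not.

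The contig chr22_KI270736v1_random was CATTC-rich throughout (44.5 words per kb), and so were all its 17 control and 18 MGO peaks. Of these, 14 control and 13 MGO peaks overlapped a peak of the other list and 8 of 13 pairs were stronger after MGO. Its strongest control peak, 2079 bp wide, had a −log10 p of 9.43 and its MGO partner 14.7. The other 16 control peaks lay between 3.37 and 8.17 and the other 17 MGO peaks between 3.65 and 7.90, so that the 2 lists overlapped in their range.

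The unplaced contig chrUn_GL000216v2 was CATTC-rich on 1 side. Of its 15 control peaks, 8 on 1 side of the contig held 84 to 154 CATTC words per kb. The 7 on the other side held 1.06 or fewer, and 39.5% to 55.8% of their bases equalled the base 68 positions on, so that some but not all of them reached the 50% limit for this repeat. In the MGO list these numbers were 7 and 7. On both sides most pairs were stronger after MGO, 4 of 6 on the CATTC side and 5 of 6 on the other, but the strongest control peak of each side was weaker. The −log10 p of the peak shown above was 32.7 in the control and 28.3 after MGO. That of the strongest on the other side, from position 149150, was 32.1 and 19.1. The latter was 1115 bp wide in the control and its MGO partner 3369 bp. Over the whole contig 9 of 12 pairs were stronger after MGO, 13 of 15 control peaks overlapped an MGO peak, and the covered length was 18.6 kb in the control and 22.4 kb after MGO.

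Ribosomal DNA lay on the unplaced contig chrUn_GL000220v1 and the unlocalized contig chr22_KI270733v1_random. Each held 2 copies of the 5.8S rRNA gene with 100% identity to the annotated RNA5-8SN1 transcript, at positions 112025 to 112177 and 155997 to 156149 of the first and 128877 to 129029 and 173956 to 174108 of the second. The first contig held 10 control and 8 MGO peaks, covering 10.2 kb and 15.6 kb, and 7 of its 8 pairs were wider after MGO. The second held 8 control and 9 MGO peaks, covering 9.92 kb and 13.3 kb, and 5 of its 7 pairs were wider after MGO. The peak upstream of the first 5.8S gene of chrUn_GL000220v1, whose centre is shown above, was 2412 bp wide in the control and 2925 bp after MGO, with fold enrichments of 1.41 and 1.31. The corresponding peak of chr22_KI270733v1_random was 2259 bp and 3472 bp wide, with 1.42 and 1.29. These 2 pairs were thus wider and lower in enrichment after MGO. Peaks with an enrichment under 2 made up 6 of 10 control and 6 of 8 MGO peaks of the first contig, and 5 of 8 and 7 of 9 of the second. The strongest control peak of each contig lay far from these genes, about 104 kb before the first of them, and was weaker after MGO. Its −log10 p was 31.2 in the control and 11.5 after MGO on chrUn_GL000220v1, and 23.9 and 6.75 on chr22_KI270733v1_random. The peak after the first 5.8S gene of chr22_KI270733v1_random had a higher −log10 p after MGO, with 8.94 in the control and 23.6 after MGO. Its fold enrichment was nearly unchanged (1.535 and 1.543). The corresponding peak of chrUn_GL000220v1 had a −log10 p of 6.69 in the control and 8.90 after MGO. Its fold enrichment was lower after MGO (1.501 and 1.379). Both contigs hold copies of 1 repeat, so that their peaks are not independent observations.

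**Figure D4:**
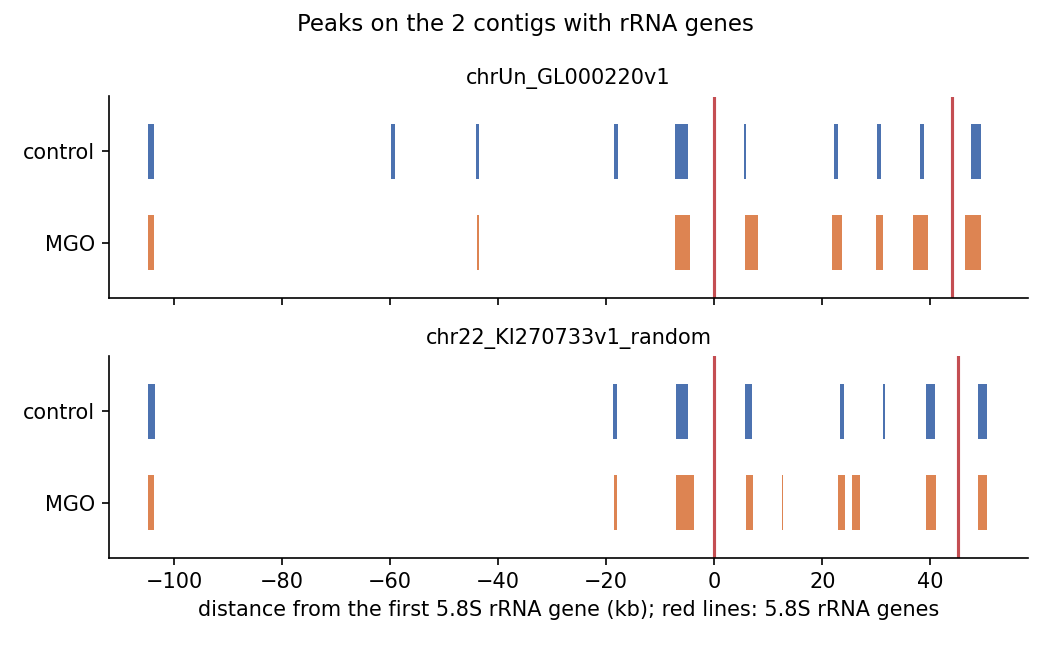
Peaks of the control list (blue) and the MGO list (orange) on the 2 contigs with ribosomal DNA, by distance from the first 5.8S rRNA gene in kb (horizontal axis); red lines mark the 5.8S genes and the length of a bar is the width of a peak. Peaks recur before and after each gene, and most bars are longer in the MGO row (15.6 kb against 10.2 kb covered on chrUn_GL000220v1).

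Among peaks found in 1 list alone, the 3 strongest of the MGO list lay on unplaced and unlocalized contigs. The first lay on chrUn_KI270742v1, was 620 bp wide with 50 CATTC words per kb, and had a −log10 p of 12.3 and a fold enrichment of 5.60. The second, on chrUn_GL000216v2 from position 164431, had 8.34 and 1.83 and the third, on chr22_KI270734v1_random, 6.96 and 3.40 with a width of 1671 bp and 1.80 CATTC words per kb. The nearest control peak was 2651, 1799 and 3107 bp away. The best chromosome alignments of the first and the second, at 96.6% and 95.1% identity, carried peaks in both lists. The 3 strongest peaks of the control list without an MGO partner all lay on alternate contigs. They had −log10 p values of 10.8, 9.69 and 9.39, on chr5_GL383530v1_alt, chr18_GL383567v1_alt and chr12_GL877876v1_alt. The chromosome copy of each carried a control peak, and that of the third also an MGO peak. The third site was also called in both lists on chr12_KI270904v1_alt, with 10.7 in the control and 14.1 after MGO.

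Uniqueness of the sequence bears on how reads can be placed. It was measured as the share of 50-base words of a peak, the read length, that occur once in the whole reference. Reads were sequenced in pairs, which this measure does not take into account. The median share was 52.8% in control peaks of unlocalized and unplaced contigs, 0% in alternate control peaks and 100% in chromosome peaks. Among alternate peaks 319 of 414 in the control (77.1%) and 227 of 287 after MGO (79.1%) had no word that occurs once, and 298 (71.98%) and 206 (71.8%) had all their words also outside the alternate contigs. The methods state that reads mapping to several places were removed. How reads were placed on these contigs, and its part in their peak numbers, was not tested. Among unlocalized and unplaced contigs the ratio of peak numbers was 1.03 for peaks with under 10% of words found once and 1.02 for those with 90% or more. Chromosome peaks with under 10% had a ratio of 1.04 (1169 and 1211 peaks, 0.955 to 1.12), and 60.6% of them overlapped an MGO peak. Alternate peaks with under 10% were not level, with 360 in the control and 255 after MGO (ratio 0.708, 0.601 to 0.834) and an overlap of 57.8%. Among chromosome peaks, those with 90% or more of words found once had a ratio of 0.606.

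**Figure D5:**
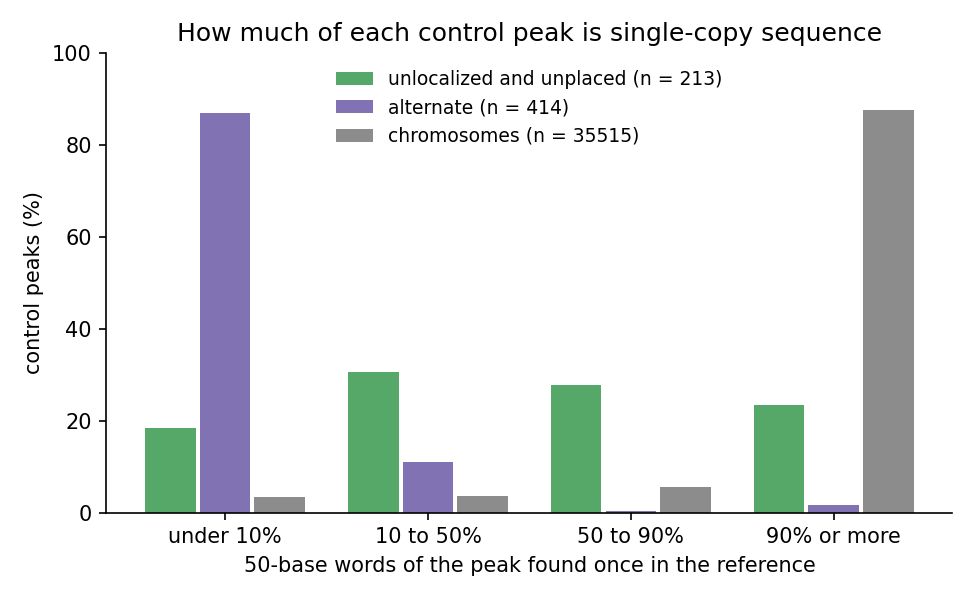
Percentage of control peaks (vertical axis) by the share of their 50-base words that occur once in the reference (horizontal axis), for unlocalized and unplaced contigs together (green, n = 213), alternate contigs (purple, n = 414) and chromosomes (grey, n = 35515). Alternate peaks gather at under 10% and chromosome peaks at 90% or more, and unlocalized and unplaced peaks are spread over all 4 groups.

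Each alternate contig has a counterpart on a chromosome, so the same DNA could be read in 2 places. Of the 414 control peaks on alternate contigs 406 aligned over at least 80% of their length to a chromosome, 403 of them to the chromosome of their name, with a median identity of 100%. Because some regions have several alternate versions, the 406 peaks stood for 366 separate places. At 282 of the 406 alignments (69.5%) the chromosome copy also carried a control peak. In these 282 cases an MGO peak was present at the chromosome copy in 69.9% and at the alternate peak itself in 69.1%. Calls at the 2 copies went together in most cases. Where the alternate peak overlapped an MGO peak the chromosome copy had one in 163 of 195 cases (83.6%, 77.8 to 88.1), and where it did not in 34 of 87 (39.1%, 29.5 to 49.6). Where both places hold the same words, the copies are not independent measurements.

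Alternate peaks lay mostly at gene starts. By their chromosome copy, 277 of 406 control peaks (68.2%) and 211 of 279 MGO peaks (75.6%) were within 1000 bp of an annotated start of a protein-coding or lncRNA gene, against 42.1% and 59.1% of chromosome peaks. At gene starts 65.3% of the alternate control peaks overlapped an MGO peak (181 of 277), against 84.6% on the chromosomes (difference −19.3 points, −25.1 to −13.9). Away from gene starts the share was 34.1% (44 of 129), which was 9.85 points above the 24.3% of the chromosomes (2.21 to 18.4). The sign of the difference to the chromosomes thus depended on the distance from a gene start, as it did on the limit on q. On unlocalized and unplaced contigs only 12 and 8 control peaks with an alignment lay at a gene start.

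Protein-coding genes at these places numbered 239, of which 222 were reached from a control peak, 183 from an MGO peak and 166 from both. The genes named here are among those of the strongest peaks and were chosen after the values were seen. The strongest control peak at a gene start, shown above, lay at the shared start of CEP170 and SDCCAG8, which encode centrosomal proteins (copy at chr1:243254486-243256347). It had a −log10 p of 19.6 in the control and 18.3 after MGO, and its chromosome copy 19.97 and 18.6. At DSEL, an enzyme of dermatan sulfate synthesis, the values were 14.3 and 8.28, with 14.1 and 9.17 at the copy, so that both copies were weaker after MGO. MRPS36 had 14.1 and 10.4 and EPHB6, a receptor of the Eph family, 13.1 and 7.91. At SPATC1L and at PTPRK, a receptor tyrosine phosphatase, the alternate peak was stronger after MGO (15.7 and 18.6, 13.1 and 15.3) but the chromosome copy was weaker (19.2 and 14.6, 11.4 and 7.31). At these 2 genes the direction thus depended on which copy was read.

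Genes whose alternate peak was called in the control alone included SKA1, a protein of the spindle and kinetochore, with a −log10 p of 9.69 and a copy that also carried a control peak (7.97) and no MGO peak. NAPEPLD, a lipase of anandamide synthesis, had 7.45 and OTUB2, a deubiquitinase, 6.77, but the chromosome copies of both carried peaks in both lists (7.51 and 4.20, 6.51 and 4.01). At DHRS11, an oxidoreductase, the alternate peak was called after MGO alone, with 5.56, and its chromosome copy carried no peak in either list. GPI, the glycolytic glucose-6-phosphate isomerase, had 2 alternate peaks: 1 was called in both lists (7.83 in the control and 4.22 after MGO), and 1 at another of its starts after MGO alone (4.90).

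The 9 alternate contigs with the most peaks had fewer or equal numbers after MGO, with an interval of the ratio that included equal numbers on each. On chr17_KI270908v1_alt, a version of the region with KANSL1, MAPT and NSF, 15 control and 9 MGO peaks were called, and all 9 MGO peaks overlapped a control peak (ratio 0.60, 0.232 to 1.46). The MHC contig chr6_GL000256v2_alt held 14 control and 9 MGO peaks and chr6_GL000251v2_alt 11 and 7, with 5 control peaks on each that overlapped an MGO peak. HLA-C, a class I molecule that presents peptides, was reached in both lists on the second. HSPA1B, a heat shock protein, was reached there in the MGO list alone, but in both lists on another MHC contig, chr6_GL000250v2_alt. On chr22_KI270879v1_alt, with the genes of the cytokine MIF and of the chromatin remodelling subunit SMARCB1, 9 of 11 control peaks overlapped an MGO peak and none of the 9 pairs was stronger after MGO. On chr16_KI270853v1_alt, 17 control and 15 MGO peaks were called and 14 were common. Among these were the starts of PARN, a poly(A) ribonuclease, and RRN3, a factor of RNA polymerase I. The chromosome copies of the RRN3 peak and of the PARN peak shared with BFAR carried a control peak and no MGO peak. The copy of the other PARN peak carried an MGO peak and no control peak. On chr17_KI270857v1_alt the numbers were 14 and 14, and on chr15_KI270905v1_alt 15 and 11. chr5_GL339449v2_alt held 13 and 9 and chr1_KI270762v1_alt 10 and 9. Together with chr14_GL000225v1_random, chr22_KI270736v1_random and chrUn_GL000216v2, these were the 12 contigs named by peak number. They held 180 control and 147 MGO peaks. The ribosomal DNA contig chrUn_GL000220v1, with 10 and 8 peaks, held as many in total as the last of them, chr6_GL000251v2_alt.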

How the data were processed

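ATAC-seq peaks of 293T cells, 1 control and 1 MGO library, were analysed. The authors aligned paired reads of 50 bases to GRCh38.p12 with BWA-MEM (0.7.15). They discarded reads from mitochondria and reads with several mapping places (Picard, 2.16.0 in the processing notes and another version in the methods). Depths were made equal by random subsampling. Broad peaks were called with MACS2 (version not given in the sources used here) per sample without blacklisted regions. Whether alternate contigs were treated specially is not given in the sources used here. The deposited values are a fold enrichment (ratio to the background), −log10 p-values, −log10 q-values and a q-based score, which was not used. All deposited peaks entered, from −log10 q 1.01 upward.

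Classes were read from sequence names, and overlaps of 1 bp or more were counted in Python 3.11.15. Intervals are exact binomial (ratios of counts), conditional exact (ratios over the chromosomes), Wilson (shares) and Newcombe (differences), at 95%. Peaks were matched to chromosomes with minimap2 2.31 and to rRNA genes with blastn 2.17.0, and genes came from GENCODE 44. Words of 50 bases were counted on both strands of all 455 reference sequences. Contigs with 5 or more peaks, up to 12, the 3 strongest peaks of each list without a partner and the 5 strongest pairs were named by rule. Genes, repeat limits and the split by gene start were added later. Members and lists were chosen with earlier results of these data known. The code was tested on simulated data. One gene is not reported here.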

Additional observations from a re-analysis of the deposited data

How the results depend on the processing

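With 1 library per group no replicate could be left out, and peak lists carry counting error only. No paired analysis was possible because each group has 1 library. A value was taken as moved when it left the 95% counting interval of the value reported (for covered length the interval of the number ratio, scaled; for median widths an order-statistic interval). Of 115 values under 14 other settings, 55 stayed inside, 52 moved and 8 changed direction. Those of the 115 that are left out here stayed inside. The number ratio of unlocalized and unplaced contigs together, 1.02 (0.843 to 1.24), was not among the 115. It left its interval with equal numbers of peaks (1.28) and at a fold of 4 or more (0.742).

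The ratio of contig peak numbers, 0.805, became 1.17 with equal numbers of peaks, 1.02 on unlocalized and unplaced contigs alone, 0.916 at −log10 q of 5 or more and 0.573 at a fold of 4 or more. The covered length ratio, 0.875, became 1.12, 1.17, 1.08 and 0.566 under the same settings. The ratio of alternate contigs, 0.693, became 1.10 with equal numbers and 0.492 at a fold of 4 or more, and that of unlocalized contigs 0.533 at that fold. Equal numbers keep by construction as many control as MGO peaks, so ratios there are relative to the whole list.

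The share of control contig peaks overlapping an MGO peak, 63.2%, became 71.3% at −log10 q of 5 or more, 41.7% at a fold of 4 or more, 77.7% with equal numbers, 77.0% on unlocalized and unplaced contigs, 54.7% with 50% of the peak covered and 49.4% with reciprocal cover. The share of MGO contig peaks, 77.4%, became 72.7% at a fold of 4 or more, 65.9% with equal numbers, 73.4% on unlocalized and unplaced contigs, 68.9% and 61.4% with the 2 stricter overlaps. The excess over the chromosomes, 13.5 points, became 5.39 at −log10 q of 2 or more, 5.06 at a fold of 4 or more (interval −4.38 to 15.1), 7.17 with equal numbers, 27.3 on unlocalized and unplaced contigs and 8.17 with reciprocal cover. The excess of alternate contigs alone, 6.38 points, became −6.07 at −log10 q of 2 or more, −4.17 at 5 or more, 0.318 at a fold of 4 or more and 1.09 with equal numbers, and that of unlocalized and unplaced contigs 15.01 and 16.5 under the last 2; these values were added after the data were seen.

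By class, the unlocalized share became 40.0% at a fold of 4 or more, 87.5% with equal numbers and 65.7% with reciprocal cover. The unplaced share became 85.4% and 83.8% at −log10 q of 2 and 5 or more, 62.5% at a fold of 4 or more, 86.6% with equal numbers and 60% with reciprocal cover. The alternate share became 36.9% at a fold of 4 or more, 71.6% with equal numbers, 45.7% with 50% covered and 42.5% with reciprocal cover. The cause of these changes was not tested.

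The share of the control list on contigs became 1.88% at −log10 q of 2 or more, 1.36% at 5 or more, 1.88% with equal numbers and 0.589% for unlocalized and unplaced contigs, and that of the MGO list 1.91% at 5 or more and 0.953% for the last. Median widths of control contig peaks became 831 bp and 1066 bp at −log10 q of 2 and 5 or more, 886.5 bp at a fold of 4 or more, 838 bp with equal numbers and 853 bp on unlocalized and unplaced contigs. Those of MGO peaks became 828, 1117 and 843 bp under the first 3 and 995.5 bp under the last. Leaving out CATTC-rich peaks or the contig with the most peaks of a class was added after the data were seen and moved no ratio or share per class outside its interval.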
